A study of Mus musculus with 6 samples.

Results

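Simple epithelial keratins are the keratins of single-layered epithelia, and 5 of them were followed here in dental epithelial organoids (DEOs): Krt7, Krt8, Krt18, Krt19 and Krt20. They were chosen by gene name, and all 5 were found among the 47360 gene symbols of the table. DEOs were grown for 14 days in Matrigel from adult dental epithelial stem cells of the incisor apical bud of wild-type female C57BL/6J mice, 9 weeks old, whose number is not stated, and RNA of the organoids was sequenced. The 4 media analysed here all contained Wnt3a and R-spondin1 conditioned media, EGF at 100 µg per ml, Noggin at 200 µg per ml, N-acetylcysteine and Y27632. The +N medium held none of the agents that were varied between these media. The +ND medium also held DBZ (dibenzazepine), which inhibits the γ-secretase cleavage that releases active Notch. The +NF medium held FGF10 (100 µg per ml) instead, and +NFD held both agents. The labels give DBZ at 10 µM, whereas the methods text gives the same number in mmol per litre. There is 1 library per medium, so no test is possible, every difference below is between 2 libraries, and the spread between cultures is not known. The 2 media with Jagged1 were not analysed here.

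Keratins form intermediate filaments from pairs of 1 type I and 1 type II chain. Krt8 (type II) and Krt18 (type I) are the pair that appears first in the embryo and that lines most simple and glandular epithelia. Krt7 (type II) and Krt19 (type I) are found in ducts and in luminal cells, and Krt19 is the short type I keratin that lacks most of the tail domain. Krt20 (type I) is known from intestinal epithelium, umbrella cells of the urothelium and Merkel cells. Stratified epithelia such as epidermis use other pairs, Krt5 with Krt14 in basal cells and Krt1 with Krt10 in spinous cells, and unpaired keratin chains are unstable as proteins.

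On GRCm38, the build of the table, Krt7 (ENSMUSG00000023039) lies on chromosome 15 from 101411043 to 101430313 on the plus strand. Krt8 (ENSMUSG00000049382) lies on the same chromosome from 101996711 to 102004342 on the minus strand. Krt18 (ENSMUSG00000023043) lies next to it from 102028216 to 102032026 on the plus strand, and is a type I gene inside the type II keratin cluster. Krt8 and Krt18 are transcribed away from each other, with 23874 bases between their starts and 0 annotated genes wholly in between. Krt20 (ENSMUSG00000035775) and Krt19 (ENSMUSG00000020911) lie in the type I cluster on chromosome 11, from 99428403 to 99438150 and from 100140810 to 100148665, both on the minus strand.

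Promoters of 4 of the 5 members were found in RefSeq on GRCm38.p6, and Krt19 was not matched. The 3 shown are of Krt8 and Krt18, which had the same order of media in their levels, and of Krt20, which did not share it. Krt7, whose promoter was found but is not shown, had the order of Krt8 and Krt18 too. Each runs from 250 bases before to 20 bases after the annotated start, at chr15:102004323-102004592 on the minus strand for Krt8, chr15:102027966-102028235 on the plus strand for Krt18 and chr11:99438134-99438403 on the minus strand for Krt20. Capitals mark matches on either strand to any of 4 motifs. The core of the site of RBPJ, the DNA-binding partner of Notch, was searched as TGGGAA. The site of AP-1 was searched as TGANTCA. The GC box was searched as GGGCGG and the TATA box as TATAAA.
Krt8: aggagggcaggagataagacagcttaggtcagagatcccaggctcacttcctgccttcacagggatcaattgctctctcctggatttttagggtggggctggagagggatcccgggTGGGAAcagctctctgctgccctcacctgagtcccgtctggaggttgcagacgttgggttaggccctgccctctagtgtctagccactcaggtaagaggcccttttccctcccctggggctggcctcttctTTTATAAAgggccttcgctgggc
Krt18: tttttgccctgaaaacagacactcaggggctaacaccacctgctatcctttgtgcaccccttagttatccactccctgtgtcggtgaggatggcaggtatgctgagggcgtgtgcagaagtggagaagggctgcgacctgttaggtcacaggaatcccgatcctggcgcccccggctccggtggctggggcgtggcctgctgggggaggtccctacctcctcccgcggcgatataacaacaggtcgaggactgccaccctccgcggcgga
Krt20: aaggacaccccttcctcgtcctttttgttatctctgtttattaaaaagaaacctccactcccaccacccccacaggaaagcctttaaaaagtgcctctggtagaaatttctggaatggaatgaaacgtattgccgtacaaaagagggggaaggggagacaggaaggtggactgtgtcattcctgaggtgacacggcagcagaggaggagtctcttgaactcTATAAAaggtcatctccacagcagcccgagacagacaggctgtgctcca

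Krt8 held 1 match to the RBPJ core, which began 134 bases before the start, and 2 overlapping matches to the TATA box, which began 3 and 1 bases before it. Krt20 held 1 match to the TATA box, 29 bases before the start, and Krt18 held no match to any of the 4 motifs. In Krt7, whose promoter is not shown, 4 matches to the GC box were found and none to the other 3 motifs. Over all 32851 promoters of 300 bases in the RefSeq table, 25.6% held the RBPJ core, 7.81% the AP-1 site, 35.7% the GC box and 13.6% the TATA box. A match of letters is a description of the sequence and measures no binding.

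Levels are given as FPKM, the number of fragments scaled to transcript length and library size by the authors. Read totals are not given in the sources used here. Smallest steps between the low values of 8367 genes (those with only 1 transcript in the annotation, of 1000 nt or more) gave the value of 1 fragment, and by this measure the depth relative to +N was 0.798 in +ND, 1.04 in +NF and 1.05 in +NFD. Fragment numbers below are approximate and rest on these steps. Of the members, Krt8, Krt18 and Krt20 have 1 annotated transcript each, so that their fragment numbers are better fixed than those of Krt7 and Krt19 with 5 and 3 transcripts. Intervals are exact 95% intervals from the fragment numbers and cover counting error only.

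Krt18 was the highest of the 5 members in each of the 4 libraries. Its level was 76.7 FPKM in +N against 9.90 in +ND, and 241 in +NF against 63.2 in +NFD. The level of Krt18 was thus highest with FGF10 alone and lowest with DBZ alone, a 24.4-fold range. Krt8, its type II partner, was at 22.8 FPKM in +N against 0.574 in +ND, and 86.0 in +NF against 5.95 in +NFD. The media stood in the same order as for Krt18, but the range was 150-fold. In +ND the value of Krt8 rests on about 24.6 fragments, against about 1222 in +N.

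Krt19 was at 10.6 FPKM in +N against 1.03 in +ND, and 6.95 in +NF against 2.09 in +NFD. Krt7 had 3.99, 0.706, 5.15 and 1.43 FPKM in that order, and its media ranked as for Krt8 and Krt18. Both were higher in the 2 media without DBZ than in the 2 media with it. Krt20 was at 4.36 FPKM in +N, or about 229.6 fragments, and at 0.1002 FPKM in +NF, or about 5.5 fragments. It was listed at 0 in +ND and +NFD, where 3 fragments, taken as the limit that a value of 0 allows, correspond to 0.0713 and 0.0540 FPKM. Krt20 was therefore the only member whose transcripts were near the limit of detection in all media but +N.

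**Figure D1:**
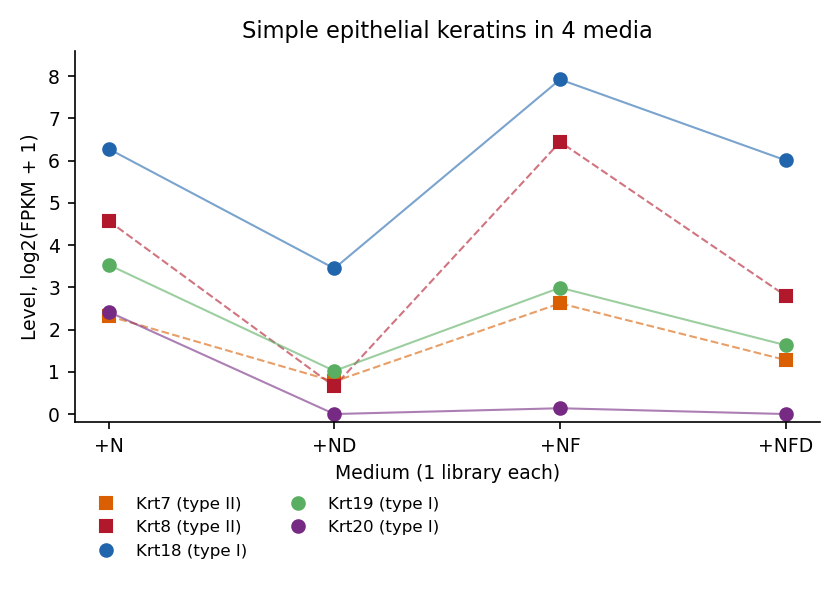
Level of each simple epithelial keratin as log2(FPKM + 1) on the y axis in the 4 media on the x axis, 1 library each; circles and solid lines are type I genes, squares and dashed lines type II genes, and lines only join the values of a gene. Krt18 is the highest in every medium, Krt8 moves from 86.0 FPKM in +NF to 0.574 in +ND, and Krt20 is above 1 FPKM in +N alone.

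In +N the order of levels was Krt18, Krt8, Krt19, Krt20 and Krt7, and Krt20 and Krt7 were close at 4.36 and 3.99 FPKM. In +NF and +NFD it was Krt18, Krt8, Krt19, Krt7 and Krt20. In +ND Krt8 stood below Krt19 and Krt7, at 0.574 FPKM against 1.03 and 0.706. With few fragments behind these 3 values, and with transcript lengths of Krt7 and Krt19 that are not fixed, their order in +ND is not resolved. The value of Krt7 in +ND corresponds to between 5.4 and 63.1 fragments, depending on which of its transcripts is used, and that of Krt19 to between 12.3 and 35.4.

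Ratios between media were computed as log2((FPKM + 1)/(FPKM + 1)) wherever the higher of both libraries had an FPKM of 1 or more, and a gene was called at a 2-fold ratio. In +ND against +N, all 5 members passed the filter and all 5 were at least 2-fold lower. Among all 13173 genes that passed, 5.29% were at least 2-fold lower and 5.88% at least 2-fold higher. The log2 ratios were -3.92 for Krt8, -2.83 for Krt18, -2.51 for Krt19 and -1.55 for Krt7. The ratio of Krt8 was deeper than those of all but 0.281% of the genes, and that of Krt18 deeper than all but 0.554%. Krt7, Krt8 and Krt20 were under 1 FPKM in +ND and passed the filter through +N alone, which leaves only a lower value possible for them, so the count of 5 is a description. With a filter at 5 FPKM, 3 members passed and all 3 were at least 2-fold lower. Krt20 is listed at 0 in +ND. Without a pseudocount, Krt8 was 39.7-fold lower in +ND than in +N (interval 26.8 to 61.6), and Krt18 was 7.74-fold lower (6.89 to 8.73). The interval of Krt8 lies wholly above that of Krt18, so that the type II partner was lower by more than the type I partner beyond counting error.

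The same agent was compared on the FGF10 background, with a pair of libraries that shares none with the first. In +NFD against +NF, 4 members passed the filter and these 4 were at least 2-fold lower, while 2.69% of 13349 genes were at least 2-fold lower and 3.72% at least 2-fold higher. Krt8 had a log2 ratio of -3.65, and was 14.4-fold lower without a pseudocount (12.9 to 16.2). Krt18 had a log2 ratio of -1.92 and was 3.82-fold lower (3.65 to 3.98). The ratios of Krt19 and Krt7 were -1.36 and -1.34. Krt20, which did not pass the filter, was at 0.1002 FPKM in +NF and is listed at 0 in +NFD. Again Krt8 was lower by more than Krt18, with intervals that do not overlap.

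With FGF10 the members differed in direction. In +NF against +N, Krt8 and Krt18 were at least 2-fold higher, with log2 ratios of 1.87 and 1.64, whereas 2.76% of 13090 genes were. In FPKM, Krt8 was 3.77-fold higher (3.54 to 4.01) and Krt18 3.14-fold higher (3.02 to 3.28). Krt7 and Krt19 stayed within 2-fold, at 0.30 and -0.54. Krt20 was at least 2-fold lower, as were 2.44% of the genes, with a log2 ratio of -2.28. It passed the filter through +N alone, which leaves only a lower value possible for it. Without a pseudocount Krt20 was 43.5-fold lower, and its few fragments in +NF give an interval of 19.7 to 119.7.

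On the DBZ background the FGF10 comparison again uses a separate pair of libraries. In +NFD against +ND, 4 members passed the filter, and Krt8 and Krt18 were at least 2-fold higher with log2 ratios of 2.14 and 2.56. Among all genes the same was true of 3.39% of 13293, and 3.11% were lower by 2-fold or more. In FPKM, Krt8 was 10.4-fold higher (6.89 to 16.2) and Krt18 6.38-fold higher (5.67 to 7.20), and these intervals overlap in part. Krt7 and Krt19 were at 0.51 and 0.61 on the log2(FPKM + 1) scale, and at 2.02-fold and 2.03-fold higher without a pseudocount. Krt7 and Krt8 passed the filter here through +NFD alone, which leaves only a higher value possible for them. Krt20 is listed at 0 in both libraries.

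With both agents, in +NFD against +N, the 5 members passed the filter and 4 were at least 2-fold lower, against 4.03% of 13358 genes, while 5.85% were higher by 2-fold or more. Krt8 had a log2 ratio of -1.78, Krt19 of -1.91 and Krt7 of -1.04, and Krt20 is listed at 0. Krt20 passed the filter through +N alone, which leaves only a lower value possible for it, so the count of 4 is a description. Krt18 was the exception. It was at 63.2 FPKM in +NFD and 76.7 in +N, a log2 ratio of -0.27, or 1.21-fold lower with an interval of 1.15 to 1.28. This comparison shares its libraries with those above, so its values are given beside them and not as a further observation. The median log2 ratio of all genes was 0.10 in +ND, 0.12 in +NF and 0.18 in +NFD, each against +N. Relative to this shift the ratio of Krt18 in +NFD was -0.45.

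**Figure D2:**
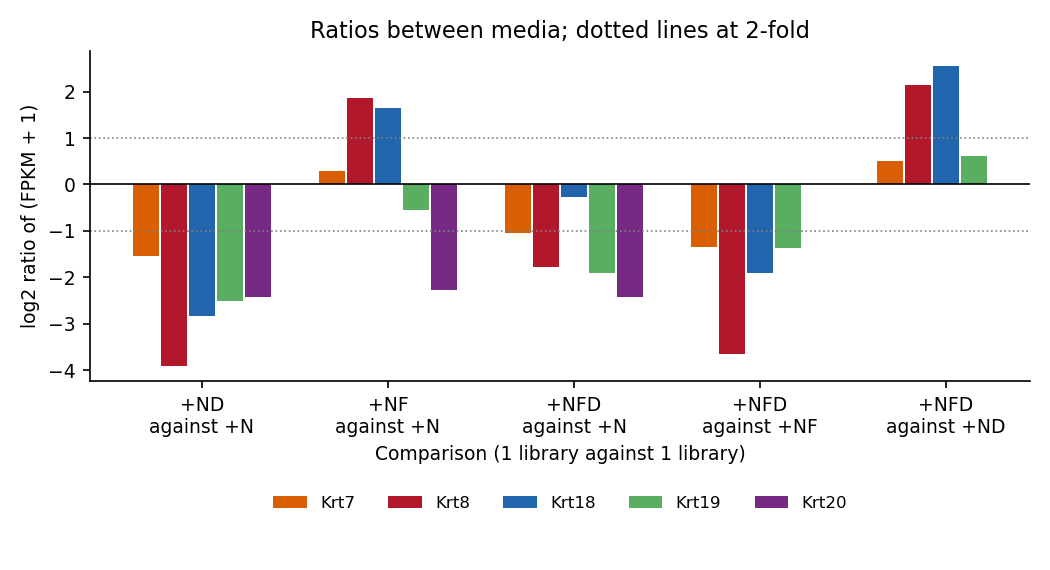
Bars give the log2 ratio of (FPKM + 1) on the y axis for each member in the 5 comparisons on the x axis, each of 1 library against 1 library; dotted lines mark a 2-fold ratio, and a missing bar is a member under the filter. Both comparisons that add DBZ to a medium hold bars below the lower line only, and both that add FGF10 hold Krt8 and Krt18 above the upper line.

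Since type I and type II chains assemble in equal number, the transcripts of the partners were compared with each other within each library. Krt18 was 3.36 times the FPKM of Krt8 in +N (interval 3.14 to 3.59) and 2.81 times in +NF (2.71 to 2.90). It was 17.2 times Krt8 in +ND (11.5 to 27.1) and 10.6 times in +NFD (9.48 to 11.9). The ratio in either medium with DBZ lay above that in either medium without it, beyond counting error. Krt19 was 2.65 times Krt7 in +N, 1.46 times in +ND, 1.35 times in +NF and 1.47 times in +NFD, and did not separate media with DBZ from media without it.

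Summed over the simple keratins, type I transcripts were at 91.6 FPKM and type II at 26.8 in +N, a ratio of 3.42. The sums were 10.9 and 1.28 in +ND, 248 and 91.1 in +NF, and 65.3 and 7.37 in +NFD, with ratios of 8.54, 2.72 and 8.86. Over the 45 other keratin genes of both types in the table, the ratio of type I to type II was 1.18 in +N against 1.11 in +ND, and 0.961 in +NF against 1.03 in +NFD. These sums of other keratins are dominated by a few abundant genes such as Krt5 and Krt14, and single pairs among them were not equal. Krt13 was 6.31 times its partner Krt4 in +N, 12.9 times in +ND, 4.88 times in +NF and 4.57 times in +NFD. Krt10 was 313 times Krt1 in +N and 102 times in +NF, but 0.628 times in +ND and 2.74 times in +NFD. Krt1 was at 0.300 FPKM in +N and 0.0123 in +NF, under 1 FPKM, so the ratios of 313 and 102 are not well fixed. Unequal partner transcripts, as for Krt13 and Krt4, were thus not particular to the simple keratins. These are transcript levels, and no protein was measured.

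**Figure D3:**
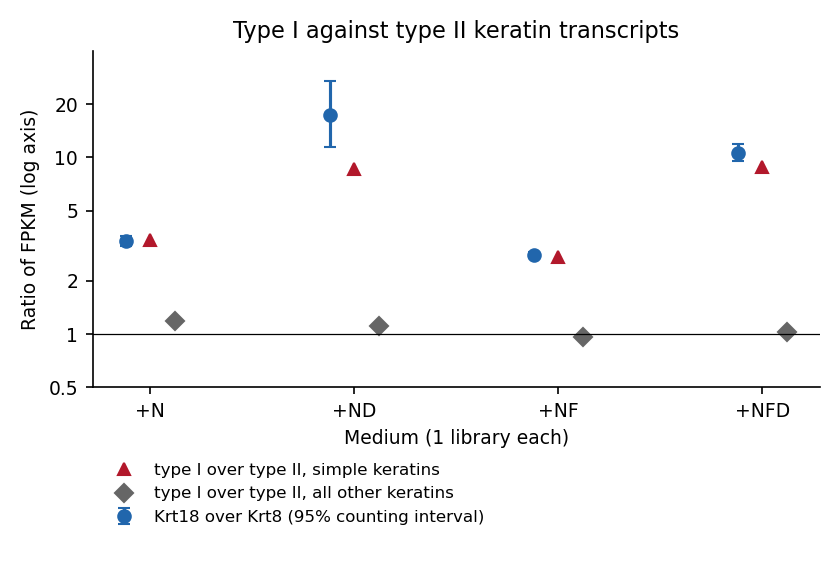
Ratios of FPKM within each library on a log y axis for the 4 media on the x axis: Krt18 over Krt8 (circles, bars are the 95% counting interval), type I over type II sums of the simple keratins (triangles) and of all other keratins (diamonds). The 2 simple keratin ratios are higher in +ND and +NFD than in +N and +NF, and the diamonds lie between 0.961 and 1.18.

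Simple keratins were a small part of the keratin transcripts of DEOs. Of the FPKM summed over all 50 keratin genes compared, they made up 0.413% in +N against 0.0615% in +ND, and 1.72% in +NF against 0.422% in +NFD. Krt8 and Krt18 together were between 84.0% of the simple keratin sum in +N and 96.4% in +NF. In bulk RNA, fewer cells with these keratins and less of their RNA per cell cannot be told apart.

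The 45 other keratins are described beside the simple keratins, without a test of the difference. In +NF against +N, 14 of them passed the filter, with a median log2 ratio of -1.07. None was higher (0 of 14), beside 65.7% of all genes, and 7 were at least 2-fold lower, beside 2.44%. Krt10, the type I keratin of spinous cells, went from 94.1 FPKM in +N to 1.25 in +NF, and Krt13, the type I keratin of mucosal suprabasal cells, from 435 to 18.5. Krt8, Krt18 and Krt7 were the only 3 keratins above the filter that were higher in +NF. Without a filter, 9 of the 45 others had a ratio above 0, and 0 of these were at least 2-fold higher, beside 0.762% of all genes.

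In +NFD against +NF, 18 other keratins passed the filter. None was lower by 2-fold or more (0 of 18), beside 2.69% of all genes, and 8 were higher by that much, beside 3.72%. At this background share, nothing is read from the count of 0 lower. Of the 8 higher, Krt1, Krt75 and Krt78 were under 1 FPKM in +NF. They passed through +NFD alone, which leaves only a higher value possible for them. The median log2 ratio of the 18 was 0.80, against -1.64 for the 4 simple keratins that passed. Krt80, a type II keratin of differentiating epithelia and the nearest upstream protein-coding neighbour of Krt7, had a log2 ratio of 2.93 here and 2.75 in +ND against +N. In +ND against +N the 18 other keratins that passed were spread on both sides, with 6 at least 2-fold higher, 4 at least 2-fold lower and a median of -0.0071. Among the 4 were the mucosal pair, Krt4 at -2.67 and Krt13 at -1.75. Of the 6 higher, Krt1, Krt75 and Krt78 were under 1 FPKM in +N and passed through +ND alone. Only a higher value was possible for them, so the spread on both sides is a description. In +NFD against +ND, 0 of 18 other keratins were higher by 2-fold or more and 8 were lower by that much, beside 3.39% and 3.11% of all genes. Nothing is read from this 0 either. The median was -0.81, against 1.37 for the 4 simple keratins that passed. Of these 4, Krt7 and Krt8 passed through +NFD alone, so only a higher value was possible for them.

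**Figure D4:**
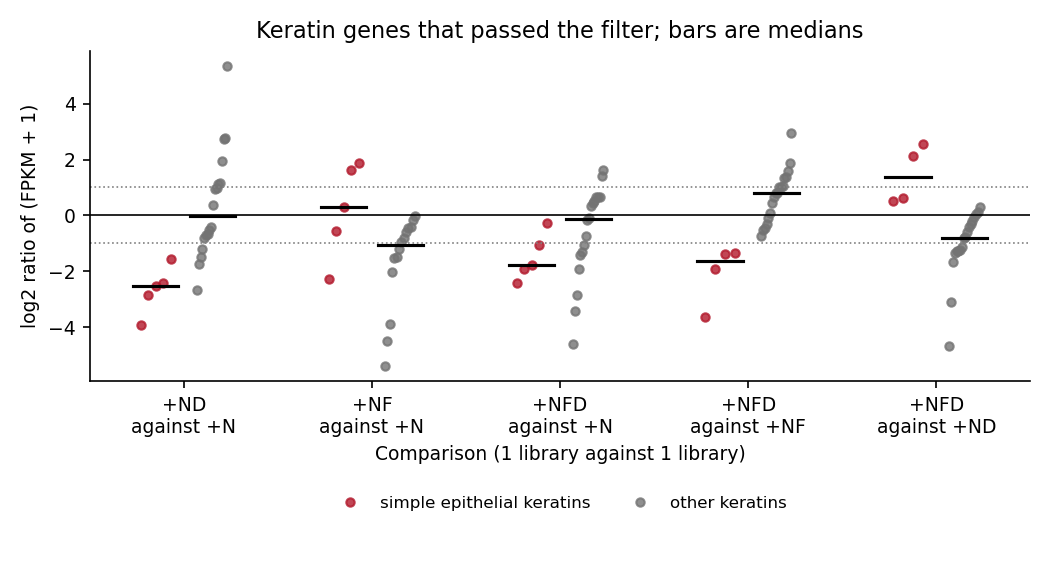
The log2 ratio of (FPKM + 1) on the y axis for every keratin gene that passed the filter, with simple keratins in red and the other type I and type II keratins in grey, for the 5 comparisons on the x axis; each dot is a gene, black bars are medians. In +NFD against +NF the 4 red dots lie below -1 and no grey dot does, and in +NF against +N no grey dot lies above 0. In the first of these comparisons 2.69% of all genes were at least 2-fold lower, so nothing is read from the absence of grey dots there. In the second, 65.7% of all genes were above 0.

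Values of genes next to the members are given for comparison. Eif4b, which encodes a translation initiation factor and follows Krt18 on chromosome 15, was between 125 FPKM in +N and 155 in +ND. Krt78, a suprabasal type II keratin gene on the other side of Krt8, was at 0.673 FPKM in +N against 5.39 in +ND, and 0.0392 in +NF against 1.65 in +NFD, higher with DBZ and lower with FGF10. Krt15, which lies next to Krt19 in the type I cluster and encodes a basal keratin, had 8.62, 4.48, 2.39 and 2.65 FPKM in that order. The pseudogene Krt8-ps, named after Krt8, was listed at 0.386, 0, 2.02 and 0.137 FPKM in the same order. Whether these fragments came from Krt8 was not tested, and the values of Krt8 can hold or lack a few shared fragments.

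Genes that mark the surface and junctions of simple epithelia were compared as a list of 27. In +ND against +N, 26 passed the filter, 13 were at least 2-fold lower and 0 at least 2-fold higher, with a median log2 ratio of -1.002. Among all genes, 5.29% were lower by as much and 5.88% higher. Cldn3, a tight junction claudin, was at 13.7 FPKM in +N against 1.22 in +ND, and 8.94 in +NF against 1.75 in +NFD. Cldn7 had 53.2, 12.9, 31.6 and 12.1 FPKM in that order, and Tjp3, a tight junction scaffold, had 8.37, 1.16, 3.56 and 1.87. In +NFD against +NF, 4 of 25 were at least 2-fold lower and 0 higher, beside 2.69% and 3.72% of all genes, with a median of -0.47. The 4 were Ceacam1, Cldn3, Cldn7 and Epcam. Epcam, an adhesion molecule of simple epithelia, had the media in the same order as Krt7, Krt8 and Krt18. It was at 122 FPKM in +N against 54.8 in +ND, and 218 in +NF against 98.4 in +NFD. In +NF against +N, 2 of 26 genes of the list were at least 2-fold lower and 0 higher, and in +NFD against +ND 1 of 24 was lower and 0 higher. Among all genes, 2.44% and 3.11% were lower by as much. With 2.76% and 3.39% of all genes called higher in these comparisons, fewer than 1 gene would be called in a list of this size at the background share, so nothing is read from the counts of 0.

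Transcription factors of simple and luminal epithelia, a list of 24, were called in both directions. In +ND against +N, 17 passed the filter, 2 were higher by 2-fold or more and 2 lower, with a median log2 ratio of -0.23, beside 5.88% and 5.29% of all genes. The 2 higher were Ovol1, a zinc finger factor of epithelial differentiation, at 1.51 and Spdef, an Ets factor of secretory cells, at 1.37. Spdef was under 1 FPKM in +N and passed through +ND alone, which leaves only a higher value possible for it. The 2 lower were Sox9, a factor of progenitor and ductal cells, and Ehf, an epithelial Ets factor. Sox9 was at 21.4 FPKM in +N against 1.45 in +ND, and 21.6 in +NF against 2.81 in +NFD. It was the only 1 of 15 that was at least 2-fold lower in +NFD against +NF, beside 2.69% of all genes. Of the Notch target genes, a list of 10, 3 reached an FPKM of 1. All 3 were at least 2-fold lower in +ND than in +N, beside 5.29% of all genes. Nrarp, a feedback inhibitor that Notch induces, was at 18.2 FPKM in +N against 2.80 in +ND, and 9.12 in +NF against 2.60 in +NFD. In +NFD against +NF, Nrarp alone of the 3 was at least 2-fold lower, beside 2.69% of all genes.

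A list of 15 genes of plakins, plakophilins and other proteins linked to keratin or desmosomes, of which 14 are in the table, also held genes without a known linker role such as Krtcap2. In +ND against +N, 2 of 14 passed 2-fold, 1 in each direction, close to the 5.88% and 5.29% of all genes. The higher gene was Dst, which encodes the hemidesmosomal linker dystonin, at 18.7 and 39.4 FPKM, and the lower was Evpl, which encodes envoplakin, at 39.3 and 16.9. In +NFD against +NF, 0 of 13 passed 2-fold in either direction, beside 3.72% of all genes higher and 2.69% lower. At these shares, nothing is read from this 0. Dsp, the desmosomal plakin, was at 157 FPKM in +NF and 122 in +NFD.

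Markers of Merkel, intestinal and taste cells, which are known to carry simple keratins, were mostly under an FPKM of 1. Of 16 Merkel cell markers, only Isl1 and Sox2, the latter also a marker of incisor epithelial stem cells, reached an FPKM of 1 in any library. Isl1 was between 16.2 FPKM in +ND and 34.8 in +NF, whereas the defining factors Atoh1 and Pou4f3 were listed at 0 in all 4. Of 10 intestinal markers, 1 reached an FPKM of 1 in any library, and Cdx1 and Cdx2 were listed at 0 in all 4. Of 10 taste cell markers, 1 reached it. Secretory and glandular genes, a list of 24, summed to 2930 FPKM in +N against 1533 in +ND, and 2612 in +NF against 1398 in +NFD, and so were lower in both media with DBZ. The protease inhibitor gene Slpi alone was at 1965 FPKM in +N. The part of glandular cells in the ratios of the simple keratins was not tested. Epithelial genes were abundant, with Krt5 between 4984 and 6582 FPKM and Krt14 between 5530 and 12652. DEOs also held transcripts of other lineages. The sum over 10 macrophage markers was 716 FPKM in +N against 595 in +ND, and 506 in +NF against 466 in +NFD. The sum over 10 fibroblast markers was 272, 251, 171 and 657 FPKM. In +NFD against +NF 8 of the 10 were at least 2-fold higher, beside 3.72% of all genes, none of them being at 0 in any library. Thy1 and Pdgfrb, among the 8, were under 1 FPKM in +NF. Both passed the filter through +NFD alone, which leaves only a higher value possible for them. The part of these cells in the ratios of the simple keratins in +NFD was not tested. In +ND against +N, 0 of the 10 fibroblast markers passed 2-fold in either direction, beside 5.88% of all genes higher and 5.29% lower.

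For each member, the 5 genes with the most similar pattern were taken among genes that reached an FPKM of 5, as the smallest root mean square difference of log2(FPKM + 1), centred on its mean, over the 4 libraries. All genes share these 4 libraries and their scaling, and the measure carries no test. Kcnq1, which encodes a potassium channel, was nearest to Krt8 among 10466 genes, with a difference of 0.48 and levels of 29.3 FPKM in +N against 0.862 in +ND, and 46.3 in +NF against 5.48 in +NFD. The others were Gm14005, 2010300F17Rik, the membrane protein gene Tm4sf1 and Krt18, which stood 5th with a difference of 0.72. Nearest to Krt18 were 2010300F17Rik at 0.36, the claudin gene Cldn6 at 0.44, Gm13056, Clec11a and Tmem176b, and Krt8 stood at rank 24. Krt7 was nearest to Anxa3, which encodes an annexin, at 0.067, and then to Nhsl1, Serpinb9, Apobec1 and Samhd1. Krt19 was nearest to the chemokine gene Cxcl5 at 0.044 and to Wnt11, Mlph, Rom1 and D330020A13Rik. Cxcl5 was at 1955 FPKM in +N against 361 in +ND, and 1390 in +NF against 567 in +NFD. Krt20 was nearest to Gm10139 at 0.15, Idi2, Far2, Stra6 and Psca. No gene stood in more than 1 of these lists of 5, except 2010300F17Rik in those of Krt8 and Krt18.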

How the data were processed

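RNA from DEOs was sequenced by the authors from TruSeq libraries on an Illumina HiSeq sequencer. Per the labels and the methods, reads were checked with FastQC 0.11.9, trimmed with Trim Galore 0.6.5 and aligned to GRCm38 with TopHat 2.1.1, and the authors deposited FPKM values estimated with Cufflinks. The annotation release, strand setting and Cufflinks options are not given in the sources used here. FPKM removes absolute depth, and fragments shared by related keratin genes can be split between them.

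From the deposited FPKM, the 47493 entries were summed to 47360 symbols, of which 123 had several entries. GENCODE release M21 on GRCm38 gave transcript lengths and neighbours for 46994 of the identifiers. Members and lists were chosen with earlier results of these data known. The lists were written from general knowledge, and the genes named are the members, their neighbours, the most similar genes and, per list, the highest or the most changed ones. Other genes named were chosen after their values were seen. With 1 library per medium no test was run, and the table held no columns of comparisons. The alternatives were another pseudocount (0.1 or none), another filter (none, or 5 FPKM), scaling to the upper quartile, centring on the median, the highest entry per symbol, weighting by length, and leaving out Krt5 and Krt14. Running these settings on the other keratins was chosen after seeing the data. Ratio calls, fragment steps and the measure of similar pattern were tested on simulated data. Python (3.11.15) ran with pandas (2.3.3), numpy (2.4.6) and scipy (1.17.1), and plots came from matplotlib (3.10.9).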

Additional observations from a re-analysis of the deposited data

Results flagged for a closer look

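Krt19 moved in opposite directions with FGF10 in the 2 Notch backgrounds. Its log2 ratio was -0.54 in +NF against +N and 0.61 in +NFD against +ND, with levels of 10.6 and 6.95 FPKM in the first pair and 1.03 and 2.09 FPKM in the second. Neither ratio reached 2-fold on this scale, and the difference between the 2 backgrounds was not tested. No other member changed direction in this way.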

How the results depend on the processing

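Across the 5 comparisons, 18 ratios of members passed 2-fold, and their 119 values under the alternatives all kept their sign and all remained past 2-fold. Part of this was fixed in advance. Each member has 1 entry, so the highest entry per symbol returns the same ratio, and another filter returns it or drops the member. Dropped members are not among the 119 values. Counts of members moved where a filter at an FPKM of 5 removed members from the comparison. With that filter, 3 members were at least 2-fold lower in +ND against +N, 0 in +NF against +N, and 2 in +NFD against +N. Without a pseudocount, 4 members in place of 2 were at least 2-fold higher in +NFD against +ND, because Krt7 and Krt19 lie just past 2-fold in FPKM. The log2 ratio of type I to type II simple keratins was 1.77 in +N against 3.09 in +ND, and 1.45 in +NF against 3.15 in +NFD. Weighted by the longest transcript it was 1.15, 1.98, 0.92 and 2.43 in the same order. These transcripts have 4094 nt for Krt7 and 1958 for Krt8, against 1437 for Krt18, 1576 for Krt19 and 1927 for Krt20. The weights therefore lower the ratio by construction. With the same weights the share of simple keratins was 0.352% in +N, 1.41% in +NF and 0.334% in +NFD. Without Krt5 and Krt14 the share was 1.26% in +N against 0.131% in +ND, and 6.92% in +NF against 1.46% in +NFD. For the other keratins, the count at least 2-fold higher in +NFD against +NF was 8, and 5 to 10 under the alternatives, while 0 were at least 2-fold lower under any of the alternatives. With 2.69% of all genes called lower in the main setting, nothing is read from this 0. No paired analysis was possible because each medium has 1 library and the comparisons come from no test. Counting error is the only error that the depth allows to be stated.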

Other observations

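Of the 24 secretory and glandular genes, several were lower with DBZ. In +ND against +N, 11 passed the filter, 6 were at least 2-fold lower and 2 at least 2-fold higher, beside 5.29% and 5.88% of all genes. The largest ratio was that of Scgb1a1, which encodes the club cell secretory protein, at 181 FPKM in +N against 0.721 in +ND, a log2 ratio of -6.73. Wfdc18 was at 103 FPKM in +N and is listed at 0 in +ND. The 2 higher were Slc12a2, which encodes a chloride cotransporter, at 1.82 and Agr2, which encodes a disulfide isomerase of secretory cells, at 1.06. Ltf, which encodes the iron-binding defence protein lactoferrin, was at 246 FPKM in +N against 5.45 in +ND, and 199 in +NF against 8.90 in +NFD. Sftpd, which encodes surfactant protein D, was at 24.1 FPKM in +N and 19.4 in +NF, is listed at 0 in +ND, and was at 0.0194 in +NFD. Scgb1a1, Wfdc18 and Sftpd were under 1 FPKM in +ND and passed through +N alone, which leaves only a lower value possible for them. Likewise Agr2 was under 1 FPKM in +N and passed through +ND alone. Wfdc2, a secreted protease inhibitor gene, had the media in the same order as Krt7, Krt8 and Krt18. It was at 332 FPKM in +N against 94.3 in +ND, and 646 in +NF against 283 in +NFD.

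Among the 6 uroplakin genes, which umbrella cells express together with Krt20, Upk1b had the pattern of Krt20. It was at 1.77 FPKM in +N and 0.103 in +NF, and is listed at 0 in +ND and +NFD. Upk3a was listed at 0 in all 4 libraries, and Upk3bl was highest in +ND at 7.24 FPKM.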
